A study of Mus musculus with 6 samples.

Results

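The genes described here are 10 that carry ammonia through the mouse liver: the urea cycle enzymes Cps1, Otc, Ass1, Asl and Arg1, the activator-producing enzyme Nags, the mitochondrial carriers Slc25a15 and Slc25a13, and the ammonia-releasing enzymes Gls2 and Glud1. They were chosen by name, and a probe was taken when its accession mapped to one of these symbols. All 10 were on the array, with 14 probes in all, among 27414 features tested. They were measured in 6 mouse hepatocellular carcinomas (HCC), 1 tumour per 1-colour Agilent array, in 3 groups of 2.

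All animals were of strain C57BL/6. The Albumin-derived tumours without CLC came from Alb-AID mice killed at an age of 90 weeks. The Epcam-derived tumours came from Epcam-AID mice that received tamoxifen and then a diet with 0.1% DDC for 8 months, and they fell into 2 tumours without CLC and 2 with CLC. DDC is a chemical that disturbs heme synthesis and provokes a ductular reaction. Ductular progenitor cells (DPC) are given as the source of the Epcam-derived tumours. CLC is named as a tumour component and is not spelled out. AID is carried by the animals of all 3 groups, so no group is free of it, and an age is given for the Alb-AID mice alone. Line, tamoxifen and diet differ together between Epcam-derived and Albumin-derived tumours and cannot be told apart. The labels do not say whether the 2 tumours of a group came from different animals, so the p-values measure the spread between these samples.

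Ammonia is released in the liver from glutamine by glutaminase and from glutamate by glutamate dehydrogenase. In the mitochondria of hepatocytes near the portal vein it is joined to bicarbonate and then to ornithine, and the resulting citrulline is turned in the cytosol into argininosuccinate, arginine and finally urea, which frees ornithine for another round. The cycle is a hallmark of mature periportal hepatocytes, while hepatocytes around the central vein capture the remaining ammonia as glutamine.

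All levels below are log2 processed signals after the 75th percentile of each array was subtracted, so a level of 0 equals that percentile and a difference of 1 is a doubling. The probe with the highest mean stood for each gene, and those 10 probes were well above background on all 6 arrays. The arrays lay on 2 slides. Slide 1 held both Albumin-derived tumours and replicate 1 with CLC. Slide 2 held both Epcam-derived tumours lacking CLC and replicate 2 with CLC. The 75th percentile of signal ran from 285 to 315 on slide 1 and from 424 to 488 on slide 2. Between 52.02% and 56.55% of probes on an array were well above background on slide 1, and between 63.14% and 64.65% on slide 2. No spot reached saturation. Of 8 hepatocyte markers 7 were measured, all well above background on every array. Their summed level on the linear scale ran from 3876 to 4351 in Albumin-derived tumours, 1902 to 2568 in Epcam-derived tumours lacking CLC and 1852 to 2502 in those with CLC. The summed level of 8 bile duct and ductular markers was 6.02 and 39.6 in Albumin-derived tumours, 45.3 and 30.5 without CLC, and 62.0 and 112 with CLC. This sum was mostly Spp1, with mean log2 levels of 3.61, 5.13 and 6.32 in these groups, and does not give the trend of the list. Every other marker had a mean level of 0.44 or less in each group. Krt19, Krt7 and Epcam were not well above background on Albumin-derived replicate 1, nor Krt7 on Albumin-derived replicate 2, nor Epcam on replicate 1 of the Epcam-derived tumours lacking CLC.

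The 10 genes did not follow 1 common pattern over the tumours. Cps1 and Gls2 were lowest in the tumours with CLC, Asl, Arg1 and Slc25a15 were lowest in the Albumin-derived tumours, and Otc, Ass1 and Glud1 were highest on Albumin-derived replicate 1. No gene of the 10 passed limma's threshold (adjusted p under 0.05 over all features) in any of the 3 comparisons, which does not show that their levels were equal. These tumours are bulk tissue, so fewer hepatocytes and less of a transcript per hepatocyte cannot be told apart.

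**Figure D1:**
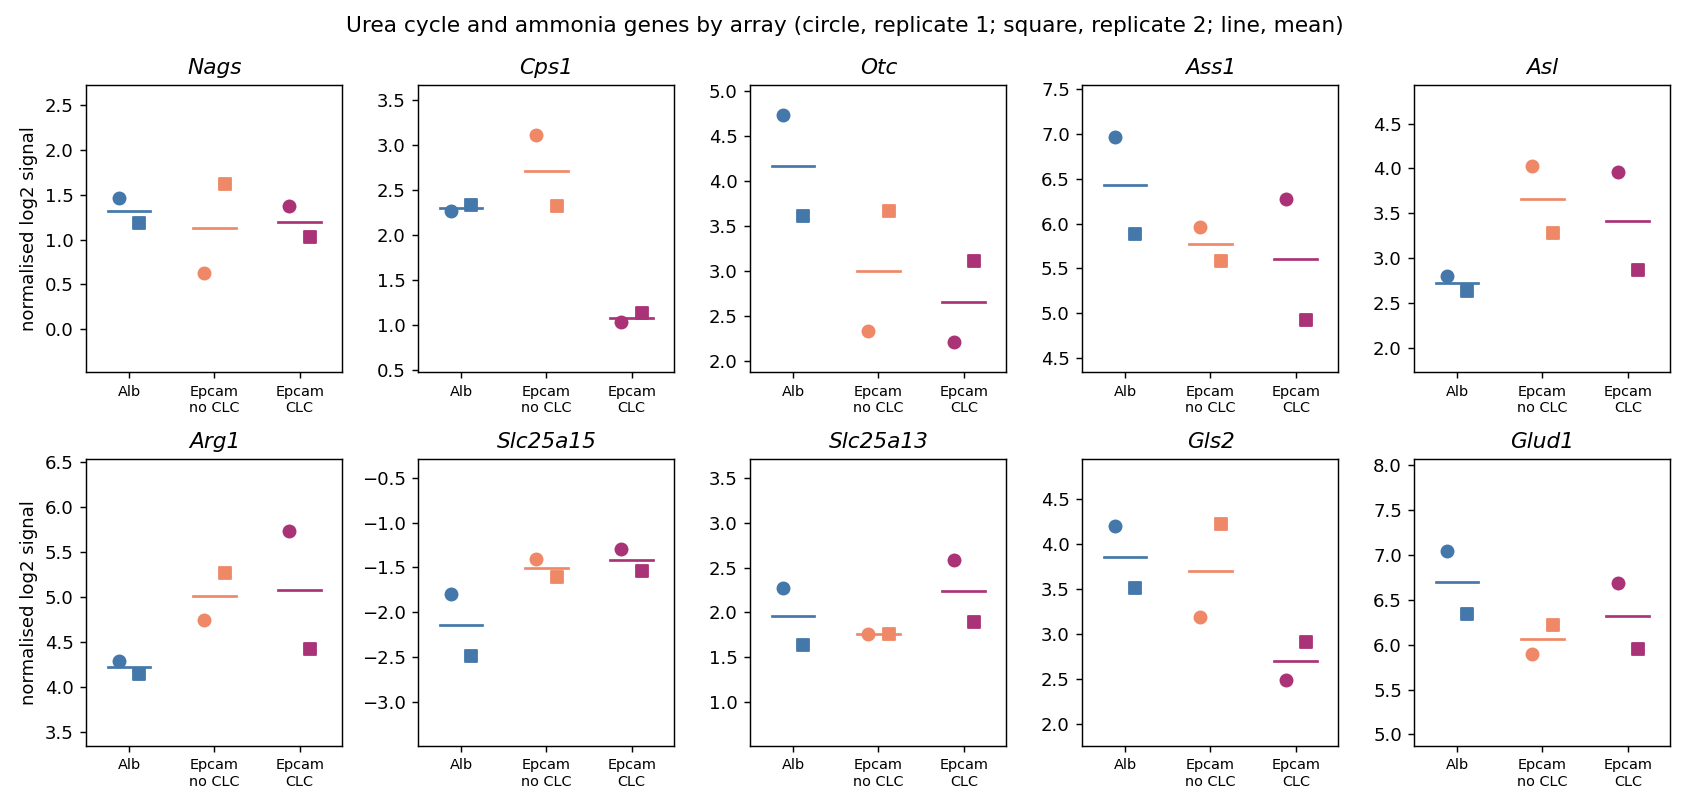
Normalised log2 signal (y axis) of each of the 10 genes on the 6 arrays, by group (x axis), with replicate 1 as a circle, replicate 2 as a square and the group mean as a line; every panel spans the same height. Both arrays with CLC lie lowest for Cps1 (1.03 and 1.13) and Gls2 (2.48 and 2.91), and all 4 Epcam-derived arrays lie above both Albumin-derived arrays for Asl, Arg1 and Slc25a15.

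The mitochondrial entry step is formed by Nags, Cps1 and Otc. Nags makes N-acetylglutamate, without which carbamoyl phosphate synthetase is inactive. Its level was 1.46 and 1.18 in Albumin-derived tumours, 0.62 and 1.62 in Epcam-derived tumours lacking CLC, and 1.37 and 1.03 in tumours with CLC. The lowest and the highest value both fell in the Epcam-derived group without CLC, and the groups overlapped in every comparison. Fitted differences were -0.20 ± 0.40 (log2, SE, n = 2) for Epcam-derived against Albumin-derived tumours lacking CLC and 0.08 ± 0.40 for Epcam-derived tumours with CLC against those lacking it.

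Cps1, carbamoyl phosphate synthetase, captures ammonia as carbamoyl phosphate. Its level was 2.27 and 2.34 in Albumin-derived tumours, 3.12 and 2.32 in Epcam-derived tumours lacking CLC, and 1.03 and 1.13 in tumours with CLC. Both tumours with CLC were below the other 4, by a gap of 1.14 between the nearest arrays, while the Albumin-derived pair and the other Epcam-derived pair overlapped. In processed signal before scaling the values were 635 and 1053 with CLC, against 1355 and 1533 in Albumin-derived tumours and 3624 and 2262 in Epcam-derived tumours lacking CLC. The gap remained under each of 7 background, scaling and probe settings, the reported one included, between 0.76 and 1.22. Averaging a gene's probes, among these settings, could not change it, since Cps1 had only 1 probe. Over all features, 6.05% had both tumours with CLC below the other 4, and of the 10 genes 2 did, Cps1 and Gls2. Both tumours with CLC were above the other 4 for 0 of the 10 genes and for 3.80% of features.

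Otc, ornithine transcarbamylase, joins carbamoyl phosphate to ornithine and gives citrulline. Its level was 4.73 and 3.61 in Albumin-derived tumours, 2.34 and 3.67 in Epcam-derived tumours lacking CLC, and 2.21 and 3.11 in tumours with CLC. It had the widest range of the 10 genes, 2.52 or 5.75-fold between the highest and lowest array, and the replicates of every group were at least 0.89 apart. The Albumin-derived arrays were both above the arrays with CLC, but replicate 2 without CLC lay between the Albumin-derived values. A second Otc probe was well above background on 3 arrays only, and was not used.

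The cytosolic steps are formed by Ass1, Asl and Arg1. Ass1, argininosuccinate synthetase, joins citrulline to aspartate. Its level was 6.97 and 5.89 in Albumin-derived tumours, 5.96 and 5.58 in Epcam-derived tumours lacking CLC, and 6.28 and 4.93 in tumours with CLC. The tumours with CLC were 1.35 apart, the widest replicate gap of any of the 10 genes, and the groups overlapped in all 3 comparisons.

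Asl, argininosuccinate lyase, splits argininosuccinate into arginine and fumarate. Its level was 2.80 and 2.64 in Albumin-derived tumours, 4.03 and 3.29 in Epcam-derived tumours lacking CLC, and 3.96 and 2.86 in tumours with CLC. Every Epcam-derived array was above both Albumin-derived arrays, by 0.06 at the nearest point, and replicate 1 was the higher of each Epcam-derived pair. With each array scaled to its median the order at the nearest point turned, by -0.01.

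Arg1, the liver arginase, releases urea from arginine and returns ornithine. Its level was 4.29 and 4.14 in Albumin-derived tumours, 4.75 and 5.27 in Epcam-derived tumours lacking CLC, and 5.74 and 4.42 in tumours with CLC. Every Epcam-derived array was above both Albumin-derived arrays, by 0.13 at the nearest point. This held under each of the 7 settings, the reported one included, with gaps from 0.06 to 0.39. Averaging probes could not change it, since Arg1 had only 1 probe. The highest and lowest Epcam-derived values were both from tumours with CLC.

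The carriers move the intermediates across the mitochondrial membrane. Slc25a15, the ornithine carrier, had levels of -1.80 and -2.48 in Albumin-derived tumours, -1.41 and -1.61 in Epcam-derived tumours lacking CLC, and -1.29 and -1.54 in tumours with CLC. All 4 Epcam-derived arrays lay within 0.32 of each other and above both Albumin-derived arrays, except with normexp background correction, where the nearest arrays crossed by -0.03. Over all features, 17.6% had all 4 Epcam-derived arrays above both Albumin-derived arrays, and 3 of the 10 genes (Asl, Arg1 and Slc25a15) did, against 0 of the 10 and 18.2% of features with all 4 below.

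Slc25a13, the aspartate and glutamate carrier that supplies the cytosolic steps with aspartate, had levels of 2.28 and 1.64 in Albumin-derived tumours, 1.76 and 1.76 in Epcam-derived tumours lacking CLC, and 2.59 and 1.89 in tumours with CLC. Both tumours with CLC were above both without it among Epcam-derived tumours, and the Albumin-derived tumours overlapped with either group. On a second probe of Slc25a13 the Epcam-derived tumours overlapped, at -2.55 and -1.85 lacking CLC and -1.67 and -2.31 with CLC. It had the narrowest range of the 10 genes, 0.94.

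Gls2 and Glud1 supply the ammonia. Gls2, the liver-type glutaminase, had levels of 4.20 and 3.51 in Albumin-derived tumours, 3.19 and 4.22 in Epcam-derived tumours lacking CLC, and 2.48 and 2.91 in tumours with CLC. Both tumours with CLC were below the other 4 arrays. A second Gls2 probe, for another transcript, read -0.92 and -1.38, -1.84 and -0.01, and -2.54 and -2.00 in the same order, again lowest in the tumours with CLC. The probes differed in sign between Epcam-derived and Albumin-derived tumours lacking CLC, at -0.15 and 0.22.

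Glud1, glutamate dehydrogenase, had levels of 7.05 and 6.34 in Albumin-derived tumours, 5.90 and 6.22 in Epcam-derived tumours lacking CLC, and 6.69 and 5.95 in tumours with CLC. Both Albumin-derived tumours were above both Epcam-derived tumours lacking CLC, and the tumours with CLC spread over both groups. A second probe of Glud1 had a difference of the same sign in each comparison. It read 3.07 and 2.38 in Albumin-derived tumours and 2.25 and 2.73 in Epcam-derived tumours lacking CLC, so these groups overlapped on it. The second probe of Slc25a13 differed in sign from the probe used between Epcam-derived and Albumin-derived tumours lacking CLC, at 0.22 against -0.20.

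**Figure D2:**
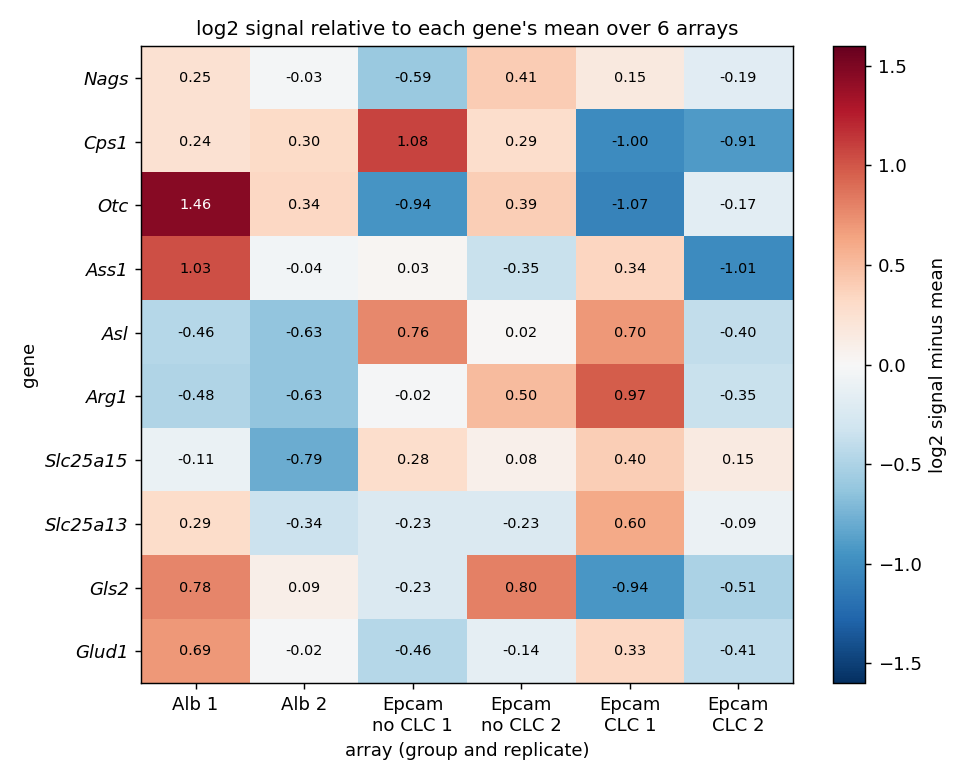
Log2 signal of each gene (rows) on each array (columns) minus that gene's mean over the 6 arrays, with red above and blue below the mean. Cps1 is at -0.91 or below and Gls2 at -0.51 or below in the tumours with CLC, while the upper values of Otc (1.46) and Ass1 (1.03) fall on Albumin-derived replicate 1.

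Replicate tumours differed more for these genes than for a typical feature. The median absolute gap between replicates was 0.66 in Albumin-derived tumours, 0.63 in Epcam-derived tumours lacking CLC and 0.72 in those with CLC, against medians of 0.34, 0.38 and 0.39 over all features. Within the Epcam-derived pair without CLC, Otc, Gls2 and Nags were higher on replicate 2 by 1.33, 1.03 and 1.00, while Cps1 and Asl were lower there by -0.80 and -0.74. The enzymes of the mitochondrial entry step thus went opposite ways between these 2 tumours. Summed erythroid markers differed along the same pair, at 596 on replicate 1 and 67.5 on replicate 2, and between the tumours with CLC, at 541 and 71.6. The sum was mostly Hba-a1, with replicate SDs of 2.28 without CLC and 2.12 with CLC. Those of Hbb-b1 were 2.74 and 1.96, and those of Alas2 only 0.12 and 0.32. The part of these markers in the replicate gaps was not tested.

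The genes most alike over the arrays, by the root mean square difference of mean-centred levels over 6 arrays, were Slc25a13 and Glud1 (0.29), Nags and Glud1 (0.32) and Ass1 and Glud1 (0.36). The least alike were Otc and Asl (1.34), Otc and Arg1 (1.27) and Otc and Slc25a15 (1.12). Otc and Asl, enzymes of the same cycle, were furthest apart on replicate 1 of each group, in opposite directions. On both Albumin-derived arrays Otc was above its mean and Asl below. On replicate 1 of the Epcam-derived tumours lacking and with CLC, Otc was at -0.94 and -1.07 from its mean and Asl at 0.76 and 0.70.

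Promoter sequence from RefSeq (GRCm38.p6) was at hand for 6 of the 10 genes, with 7 windows from 250 bases before to 50 after a start site. Otc and Slc25a15 are shown because they are, among those 6, the pair furthest apart in their levels over the tumours. Each is printed 5′ to 3′ on the gene's strand, with the GC box letters GGGCGG, on either strand, in capitals. The Otc window is chrX:10252055-10252354 on the plus strand, and the Slc25a15 window is chr8:22398572-22398871 on the minus strand, the more distal of its 2 start sites.
Otc: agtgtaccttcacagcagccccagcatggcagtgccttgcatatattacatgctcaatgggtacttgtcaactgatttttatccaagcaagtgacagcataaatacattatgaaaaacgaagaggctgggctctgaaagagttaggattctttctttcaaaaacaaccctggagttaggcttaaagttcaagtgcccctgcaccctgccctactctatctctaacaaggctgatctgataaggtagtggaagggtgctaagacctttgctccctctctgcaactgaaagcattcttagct
Slc25a15: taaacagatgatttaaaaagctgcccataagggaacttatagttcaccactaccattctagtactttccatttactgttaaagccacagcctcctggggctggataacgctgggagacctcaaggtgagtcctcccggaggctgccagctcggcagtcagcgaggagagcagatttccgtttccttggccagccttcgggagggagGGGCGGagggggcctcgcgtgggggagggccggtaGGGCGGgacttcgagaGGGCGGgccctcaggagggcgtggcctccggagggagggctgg
The Otc window was 44.3% G and C and held no such letters, and the Slc25a15 window was 60.7% and held 3 matches, some before and 1 after the start. The median over all 32851 windows of this length was 52.7%, and 35.7% of them held at least 1 match. Of the 6 genes, 4 had a match (Ass1, Nags, Slc25a15 and Glud1). The letters TTGCNNAA of C/EBP, CAAAGT of HNF4 and TATAAA of the TATA box, each searched on both strands, were found in 10.8%, 14.4% and 13.6% of all windows and in 0 of the 6 genes. These are matches of letters only.

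Setting the Epcam-derived tumours with CLC against those lacking it holds the labelled origin and the diet the same. Cps1 was 3.11-fold lower with CLC, a difference of -1.64 ± 0.34 (log2, SE, n = 2; 95% interval -2.47 to -0.80). Gls2 was 2.01-fold lower at -1.01 ± 0.46 (SE, n = 2; -2.15 to 0.13), and Slc25a13 was 1.40-fold higher at 0.48 ± 0.37 (SE, n = 2). For the other 7 genes the fitted differences lay between -0.34, for Otc, and 0.26, for Glud1, and the groups overlapped.

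By limma 0 of the 10 genes passed over all features, where 0% of features did, with an adjusted p of 0.999 for Cps1. At an unadjusted p under 0.05 there was 1, Cps1, against 3.46% of features, 2.15% being lower. The groups did not overlap for 3 of the 10 genes, against 30.0% of features. Cps1 and Gls2 were the lower ones, against 19.6% of features, and Slc25a13, on the probe used only, the higher one, against 10.4%. The median difference of the 10 genes was -0.05, with 5 higher, against -0.06 and 43.3% higher over all features. On slide 2, which holds both tumours without CLC and replicate 2 with CLC, the difference of Cps1 was -1.59 ± 0.44 and that of Gls2 -0.79 ± 0.59, with 1 tumour with CLC in each. Without replicate 1 or 2 of the tumours lacking CLC, the difference of Cps1 was -1.24 or -2.04 and that of Gls2 -1.52 or -0.49. Without replicate 1 or 2 with CLC, Slc25a13 differed by 0.13 or 0.83.

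**Figure D3:**
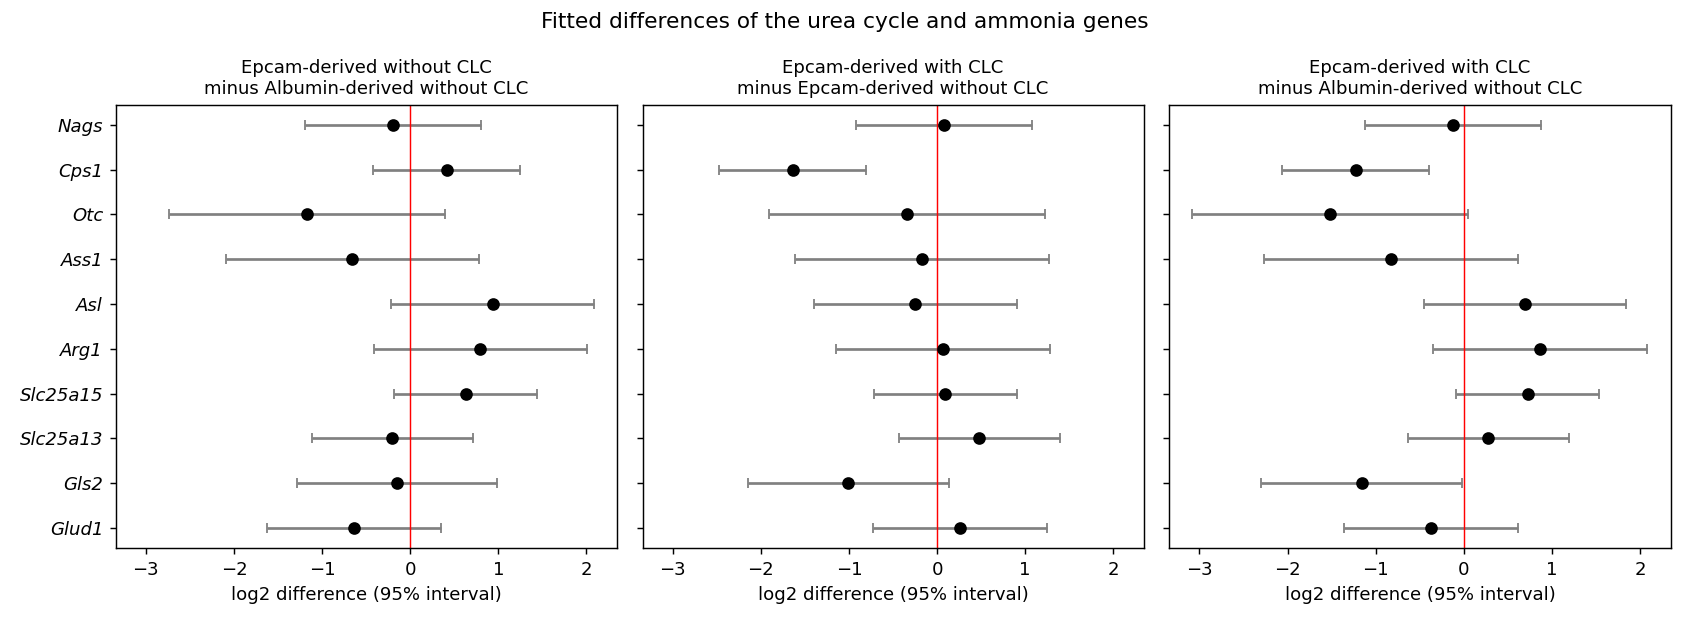
Fitted log2 differences of the 10 genes (y axis) in the 3 comparisons, as points with 95% intervals (grey bars) and the line of no difference in red. The interval of Cps1 lies below 0 in both comparisons of tumours with CLC, ending at -0.80 and -0.39, and that of Gls2 ends at -0.02 against Albumin-derived tumours.

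Setting Epcam-derived against Albumin-derived tumours, both lacking CLC, compares the labelled origins. Line, tamoxifen, diet and slide differ along with the origin and cannot be told apart from it. Asl was 1.91-fold higher in the Epcam-derived tumours at 0.94 ± 0.46 (log2, SE, n = 2; 95% interval -0.21 to 2.09), Arg1 1.74-fold higher at 0.79 ± 0.49 (-0.42 to 2.01) and Slc25a15 1.55-fold higher at 0.63 ± 0.33 (-0.18 to 1.44). Otc was 2.25-fold lower at -1.17 ± 0.63 (-2.74 to 0.39), Ass1 1.58-fold lower at -0.66 ± 0.58 and Glud1 1.56-fold lower at -0.64 ± 0.40. Cps1 differed by 0.41 ± 0.34, and Nags, Slc25a13 and Gls2 by -0.20 to -0.15. Without Albumin-derived replicate 1, Ass1 differed by -0.12, Glud1 by -0.28, Otc by -0.61 and Slc25a15 by 0.97. Without Albumin-derived replicate 2 the values were -1.20 for Ass1, -0.99 for Glud1 and 0.29 for Slc25a15. Leaving out replicate 1 of the Epcam-derived tumours gave -0.51 for Otc, 0.57 for Asl and 0.01 for Cps1, and leaving out replicate 2 gave -1.84 for Otc and 0.81 for Cps1.

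By limma 0 of the 10 genes passed over all features, against 0.241% of features, the smallest adjusted p being 0.320 for Asl, and 0 of 10 had an unadjusted p under 0.05, against 20.0% of features, 11.7% being higher and 8.30% lower. The groups did not overlap for 4 of the 10 genes, against 55.2% of features. Asl, Arg1 and Slc25a15 were the higher ones, against 30.4% of features, and Glud1, on the probe used only, the lower one, against 24.8%. The median difference of the 10 genes was -0.17, with 4 higher, against 0.06 and 53.5% higher over all features. In the same comparison all 7 measured hepatocyte markers were lower, with a median of -0.82. By limma 0 of them passed the threshold and 3 had an unadjusted p under 0.05. Their part in the differences of the cycle's genes was not tested.

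Each of these groups lies on a slide of its own, slide 1 for the Albumin-derived and slide 2 for the Epcam-derived tumours lacking CLC. A slide term could be fitted only through the tumours with CLC, 1 on each slide, and moved Asl to 2.03 ± 0.61, Arg1 to 2.12 ± 0.53, Otc to -2.07 and Ass1 to 0.70 ± 0.79, none past the threshold (limma, adjusted p from 0.509 to 0.943). The signs of Ass1, Glud1 (0.11), Nags (0.14) and Slc25a13 (0.49) turned in that fit, and the median of the 10 genes went from -0.17 to 0.40.

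The comparison of Epcam-derived tumours with CLC and Albumin-derived tumours shares its tumours with both comparisons above and is not separate from them. Cps1 was 2.34-fold lower with CLC at -1.23 ± 0.34 (log2, SE, n = 2; 95% interval -2.06 to -0.39), Gls2 2.23-fold lower at -1.16 ± 0.46 (-2.30 to -0.02) and Otc 2.86-fold lower at -1.52 ± 0.63 (-3.08 to 0.05). Arg1 was 1.82-fold higher at 0.86 ± 0.49, Slc25a15 1.65-fold higher at 0.72 ± 0.33 and Asl 1.62-fold higher at 0.69 ± 0.46. Ass1 differed by -0.83 ± 0.58, Glud1 by -0.37 ± 0.40, Slc25a13 by 0.28 ± 0.37 and Nags by -0.12 ± 0.40.

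By limma 0 of the 10 genes passed over all features, against 0.0620% of features, the smallest adjusted p being 0.195 for Cps1. At an unadjusted p under 0.05 there were 2, Cps1 and Gls2, both lower, against 8.04% of features lower and 16.0% in either direction. The groups did not overlap for 6 of the 10 genes, against 50.8% of features. Of these, 3 were lower, against 26.9% of features, and 3 higher, against 23.8%. The median difference was -0.25 with 4 of the 10 higher, against -0.01 and 49.4% higher over all features. On slide 1, which holds both Albumin-derived tumours and replicate 1 with CLC, the difference was -1.28 ± 0.44 for Cps1, -1.37 ± 0.59 for Gls2, 1.24 ± 0.43 for Asl, 1.53 ± 0.37 for Arg1 and -0.15 ± 0.56 for Ass1. Replicate 1 is the higher array with CLC for these last 3 genes. Without it, Asl differed by 0.14, Arg1 by 0.20 and Ass1 by -1.50. Leaving out Albumin-derived replicate 1 gave -0.96 for Otc and -0.29 for Ass1, and leaving out Albumin-derived replicate 2 gave 0.38 for Slc25a15.

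The hepatocyte marker list had a median difference of -0.14 between tumours with and without CLC and -0.96 between tumours with CLC and Albumin-derived tumours, in 7 genes. The bile duct and ductular list had medians of 1.41 and 0.96 in the same comparisons, in 8 genes. Over the genes well above background on all arrays compared, the medians were 1.20 in 7 genes (Epcam left out) and 0.96 in 5 (Krt19, Krt7 and Epcam left out). Between tumours with and without CLC, 7 of the 8 ductular markers were higher, against 43.3% of features, and Sox9 was lower, at -0.54. By limma 3 of the higher ones had an unadjusted p under 0.05, against 1.31% of features, and 0 passed the threshold. Summed macrophage markers were 94.9 and 70.8 with CLC, 48.0 and 66.7 in the other Epcam-derived tumours and 25.1 and 44.1 in Albumin-derived tumours. The part of these cells in the levels of Cps1 and Gls2 was not tested.

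Other genes around the cycle were taken from 7 lists, and 0 genes of any list passed limma's threshold over all features in any comparison. The highest count at an unadjusted p under 0.05 was 7 of 10 pericentral genes. It was found with CLC against Albumin-derived, where 16.0% of features reached that p. Ammonia and glutamine handling counted 12 tested genes of 14. Between tumours with and without CLC its median difference was 0.61, with 8 higher, against 43.3% of features. An unadjusted p under 0.05 was reached by 3 of the higher genes (Asns, Rhbg and Oat) and 0 of the lower ones, against 1.31% and 2.15% of features. Among genes above background in both groups the widest differences were 3.37 ± 0.68 (log2, SE, n = 2) for Asns, asparagine synthetase, and 2.34 ± 0.75 for Rhbg, an ammonium transporter of pericentral hepatocytes. Asns had levels of -0.84 and -1.56 in Epcam-derived tumours lacking CLC, against 1.42 to 2.93 on the other 4 arrays. Between Epcam-derived and Albumin-derived tumours lacking CLC, Asns differed by -3.42 ± 0.68 and the glutamine transporter Slc38a3 by -1.40 ± 0.42. Against Albumin-derived tumours, those with CLC differed by 2.26 ± 0.36 for Oat, ornithine aminotransferase, which drains ornithine, and by -1.69 ± 0.69 for Slc7a2, an arginine transporter.

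Amino acid breakdown to ammonia counted 20 tested genes of 20, with medians of -0.21, -0.13 and -0.26 for Epcam-derived against Albumin-derived tumours without CLC, with against without CLC, and with CLC against Albumin-derived. In the first of these, Sds, the serine dehydratase of periportal cells, differed by 4.47 ± 0.93 (log2, SE, n = 2) and Hpd, an enzyme of tyrosine breakdown, by 2.61 ± 0.43. In the next, Sds differed by -1.64 ± 0.93 and Agxt, which moves an amino group from alanine to glyoxylate, by -1.55 ± 0.57. With CLC against Albumin-derived, Sds differed by 2.83 ± 0.93 and Agxt by -2.45 ± 0.57. Hal, which releases ammonia from histidine, was lowest in both tumours with CLC. Its levels were 3.11 and 2.53 in Albumin-derived tumours, 2.27 and 2.21 in Epcam-derived tumours lacking CLC and 1.05 and 0.73 in tumours with CLC. Agxt was likewise lowest in both tumours with CLC, as were 6.05% of all features. Hal was picked out after its values were seen and adds no separate evidence on Cps1 and Gls2.

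Arginine and ornithine use counted 10 tested genes of 11. Aldh18a1, which makes the precursor of proline and ornithine, differed by -2.00 ± 0.55 (log2, SE, n = 2) and Gamt, a creatine synthesis enzyme, by -1.40 ± 0.48 between Epcam-derived and Albumin-derived tumours lacking CLC. Among Epcam-derived tumours, with CLC against lacking it, Aldh18a1 differed by 1.24 ± 0.55 and Gatm, which takes an amidino group from arginine, by 0.63 ± 0.53. With CLC against Albumin-derived, Gatm differed by 1.98 ± 0.53 and the spermidine synthase Srm by -1.12 ± 0.32.

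Pyrimidine synthesis, which uses carbamoyl phosphate made in the cytosol, counted 7 tested genes of 7, with medians of -0.12, 0.09 and 0.09 in the order used above. Rrm2, a subunit of ribonucleotide reductase, differed by 2.17 ± 0.85 (log2, SE, n = 2) and the orotate-forming enzyme Dhodh by -1.06 ± 0.33 in the first comparison. In the next, the CTP synthetase gene listed as Ctps differed by 1.32 ± 0.53 and Dhodh by 0.68 ± 0.33. With CLC against Albumin-derived, Ctps differed by 2.19 ± 0.53 and Rrm2 by 2.02 ± 0.85.

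Regulators of the cycle counted 11 tested genes of 11, with medians of 0.11, -0.16 and -0.09. Ppargc1a, a coactivator of fasting genes, differed by 2.19 ± 0.48 (log2, SE, n = 2) and the mitochondrial deacetylase Sirt3 by 1.09 ± 0.34 between Epcam-derived and Albumin-derived tumours lacking CLC. The same 2 genes differed by 1.94 ± 0.48 and 0.93 ± 0.34 between tumours with CLC and Albumin-derived tumours. Among Epcam-derived tumours, with CLC against lacking it, the widest differences were -0.63 ± 0.41 for Klf15, a factor of amino acid breakdown, and -0.44 ± 0.33 for the glucagon receptor Gcgr, and the groups overlapped for both.

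Other periportal genes, 12 tested of 12, had medians of -0.51, 0.25 and -0.32. Hsd17b6, a steroid dehydrogenase, differed by -4.28 ± 0.85 (log2, SE, n = 2) and the cytochrome P450 Cyp2f2 by 2.23 ± 0.68 in the first comparison. Among Epcam-derived tumours with CLC against lacking it, the aldehyde dehydrogenase Aldh1b1 differed by -1.48 ± 0.73 and the growth factor Igf1 by 1.15 ± 0.70. With CLC against Albumin-derived, Hsd17b6 differed by -4.16 ± 0.85 and Pck1, an enzyme of glucose synthesis, by 2.79 ± 0.95. Genes of the portal zone, like those of the cycle, thus differed in either direction.

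Pericentral genes, 10 tested of 11, had medians of 0.15, 1.34 and 1.48. The cytochromes P450 Cyp1a2 and Cyp2e1 differed by 3.94 ± 0.61 and -1.63 ± 0.35 (log2, SE, n = 2) in the first comparison. With against without CLC, 9 of 10 were higher, Rhbg by 2.34 ± 0.75 and Cyp2e1 by 2.04 ± 0.35, and 6 of 10 had an unadjusted p under 0.05, against 43.3% of features higher at any size and 1.31% higher at that p. Lgr5, a stem and pericentral cell receptor, was well above background on 0 of the Epcam-derived arrays lacking CLC. It passed the filter through the tumours with CLC, where it was higher but still dim, at a mean level of -3.22. Among the 9 genes above background in both groups, 8 were higher and 5 had an unadjusted p under 0.05. With CLC against Albumin-derived, 10 of 10 were higher, among them Cyp1a2 at 3.55 ± 0.61 and Oat at 2.26 ± 0.36, and 7 of 10 had an unadjusted p under 0.05, against 49.4% of features higher at any size and 7.98% higher at that p. Without Lgr5 and Slc1a2, each below background on 1 Albumin-derived array, these counts were 8 and 5 of 8. The lists of pericentral genes and of ammonia handling share 4 genes (Glul, Oat, Slc1a2 and Rhbg) and are not separate from each other.

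The genes whose mean-centred levels over the 6 arrays were nearest to those of Cps1, among 15858 with a symbol, were Camk2b, Olfr357, Tnnc1, Birc7 and Pcdhb1, with root mean square differences of 0.14, 0.19, 0.21, 0.29 and 0.29. Camk2b was well above background on all 6 arrays, and the others on 2, 3, 5 and 3 of them. Their values on the remaining arrays are below background and carry little information on their order.

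**Figure D4:**
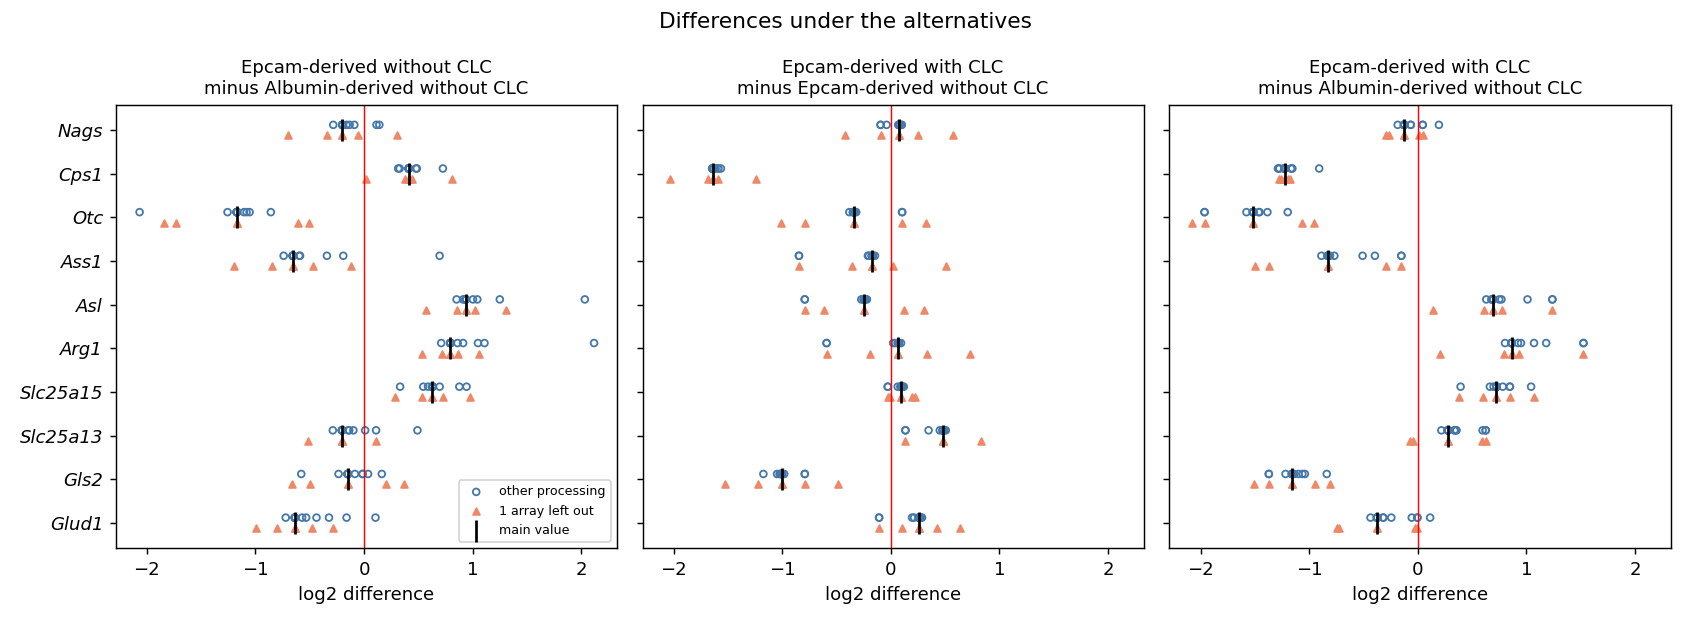
Log2 differences of the 10 genes (y axis) in the 3 comparisons under other processing (blue circles), with 1 array left out (orange triangles) and as reported (black bars), with the line of no difference in red. Those of Cps1 stay below 0 in both comparisons of tumours with CLC, from -2.04 to -1.24 and from -1.29 to -0.91, and those of Nags lie on both sides of 0 in all 3.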

How the data were processed

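The members and lists were chosen with earlier results of these data known. Total RNA (0.1 µg per tumour) was labelled with Cy3, per the labels' protocols. Deposited scanner tables give 1 processed intensity per spot, made by Agilent Feature Extraction (version 11.5.1.1, per the file headers), beside marks for background and outliers that hold other, non-signal values in the deposited files. The authors' deposited value table is that intensity times 1 factor per array (1.64 to 2.42), is linear and uncentred, keeps the direction of the scanner signal, and has column medians of 61.9, 55.0, 80.0, 74.2, 73.9 and 78.0 in label order; what set the factors is unknown.

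Of 62976 spots, 59305 were not controls. Outlier spots were left out, log2 values were scaled to each array's 75th percentile, and replicate spots were averaged. The filter required a signal well above background on the 2 arrays of some group and left 34772 probes. Accessions without versions were matched to RefSeq (GRCm38.p6, names only, as the array is annotated on mm9), and 32994 of 56605 probes received a symbol. Differences were fitted with limma 3.58.1 in R 4.3.3 (data.table version 1.17.8, jsonlite 2.0.0) over all 6 arrays with 3 residual and 2.62 prior degrees of freedom, tested on simulated data, with two-sided p adjusted by Benjamini-Hochberg over all 27414 features. Values after ± are standard errors. List genes named are those past the threshold or, with none, the 2 widest differences among genes above background in both groups; all members and the 5 genes nearest Cps1 are named too. Alternatives covered background (normexp, on the median signal since no mean signal column was at hand), scaling, filter, probe choice, variance model, slide, replicate block and each array left out. The number of arrays limits the precision.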

Additional observations from a re-analysis of the deposited data

How the results depend on the processing

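Over 21 other settings, 0 of the 10 genes passed limma's threshold in any comparison. Cps1 and Gls2 (lower with CLC than in either other group), Otc (lower than in Albumin-derived tumours in both Epcam-derived groups) and Asl, Arg1 and Slc25a15 (higher than in Albumin-derived tumours in both) kept those directions in every setting run. Many settings could not change them. The filters, symbols only, the variance models, the replicate block and leaving out an array of the group not compared leave these fitted differences as they are. The median of all features in Epcam-derived against Albumin-derived tumours without CLC, 0.06 as reported, was 0.37 in the authors' deposited table, -0.16 with normexp and -0.18 with no filter; for tumours with CLC against Albumin-derived tumours the values were -0.01, 0.31, -0.13 and -0.14.

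Features called in the first comparison numbered 66 (15 higher, 51 lower) and became 133 with normexp, 102 with quantile normalisation, 106 with median scaling, 129 in the authors' table (63 higher, 66 lower), 1 with no filter, 32 when above background on all arrays, 110 with probes averaged, 40 with symbols only, 0 with slide as a block and 0 to 16 with 1 array left out. In the last comparison 17 (3 higher, 14 lower) became 66 with normexp (6 higher, 60 lower), 66 with quantile normalisation, 28 with median scaling, 1 with no filter, 27 with an intensity trend, 0 within slide 1 or with a slide block, and 0 with any array left out. Deviations of same-numbered samples correlated between groups at -0.16, 0.06 and 0.23, the last for the 2 Epcam-derived groups. With 1 replicate difference per group, these values cannot decide whether such samples were paired. With a replicate block 11 and 0 features were called in these 2 comparisons. The members' median in the first comparison was 0.40 with slide as a block.

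Signs that turned, Epcam-derived against Albumin-derived without CLC: in the authors' table Nags 0.11, Slc25a13 0.11 and Gls2 0.16; with probes averaged Slc25a13 0.010 and Gls2 0.037; with slide as a block Ass1 0.70, Nags 0.14, Slc25a13 0.49 and Glud1 0.11. With against without CLC: with normexp Nags -0.039; within slide 2, or with slide as a block, Otc 0.10, Arg1 -0.59, Nags -0.095, Slc25a15 -0.029 and Glud1 -0.11. With CLC against Albumin-derived: with quantile normalisation Glud1 0.11; in the authors' table Nags 0.20; within slide 1, or with slide as a block, Nags 0.046. The cause was not tested.

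With 1 array left out, signs turned within these ranges: Nags -0.70 to 0.30, Slc25a13 -0.52 to 0.11 and Gls2 -0.67 to 0.37 for Epcam-derived against Albumin-derived without CLC, Otc -1.01 to 0.32, Ass1 -0.85 to 0.51, Asl -0.79 to 0.30, Arg1 -0.59 to 0.73, Nags -0.43 to 0.58, Slc25a15 -0.029 to 0.22 and Glud1 -0.11 to 0.63 for with against without CLC, and Nags -0.29 to 0.046 and Slc25a13 -0.069 to 0.63 for with CLC against Albumin-derived.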
